A study of Mus musculus with 12 samples.

Results

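The bone morphogenetic protein (BMP) pathway was followed from ligand to target gene in embryonic mouse humeri that lacked Runx2 and in wild-type humeri. The members were 10 genes chosen by name: the ligands Bmp2, Bmp4, Bmp5, Bmp6 and Bmp7, the pseudoreceptor Bambi, the secreted antagonist Grem1, the receptor Bmpr1a, the inhibitory Smad Smad6 and the target gene Id1. Every probe set, the group of array probes that measures 1 transcript, was taken where the platform annotation gave it exactly 1 gene symbol and that symbol was a member's. This gave 23 probe sets of the 10 genes, out of 36701 probe sets other than controls and 15964 genes with a singly named probe set. Of the 23, 13 were on array type A, 9 on B and 1 on C.

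Humeri were Runx2 -/- or Runx2 wild type, both at stage E14.5 of embryonic development, and each genotype comprised 2 pools of humeri numbered 1 and 2. A Runx2-null pool held about 60 humeri and a wild-type pool about 75, collected over several dissections, so a value is an average over many animals and all cell types of the humerus. The labels name no strain and no design of the deleted allele, and Runx2 itself is not analysed here. Per the labels the pools are biological replicates. The p-values compare these pools only, and they rest largely on the spread of other probe sets of similar brightness.

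BMPs are secreted dimers that are cut from larger precursors and bind pairs of type I and type II receptor kinases. The receptors phosphorylate Smad1, Smad5 and Smad9, which enter the nucleus with Smad4 and switch on targets such as the Id genes and Smad6, while antagonists outside the cell and inhibitory Smads inside it limit the signal. In long bone cartilage BMPs promote chondrocyte proliferation and differentiation, and Runx2 is the transcription factor required for osteoblast formation and for much of chondrocyte hypertrophy.

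Per the labels each pool was hybridised to all 3 array types. The 12 arrays had median signals of 37.7 to 60.4 in MAS5 units, an intensity scaled so that arrays of 1 type can be compared. Scan settings split the arrays by pool number. Those numbered 1 were read on a scanner of type HP with 2 scans at a pixel size of 3 µm. Those numbered 2 were read on a scanner of type M10 with 1 scan at 2.5 µm. On type A the same-numbered arrays of opposite genotype correlated at 0.959 and 0.960 over log2 signals, against 0.915 and 0.912 for arrays of 1 genotype. Type C did not follow this order: its same-numbered arrays correlated at 0.853 and 0.857 and its arrays of 1 labelled genotype at 0.904 and 0.899. The summed bacterial control signals, which split by number on A and B, split by genotype label on C. They were 20290.6 and 22087.8 on the C arrays labelled Runx2-null and 38935.6 and 49013.2 on those labelled wild type. Over 1189 genes tested on both A and C, the log2 difference between genotypes on A correlated with that on C at -0.005. The difference between numbers on A correlated with that on C at 0.036, and with the labelled difference between genotypes on C at 0.095. Values from type C are therefore given as labelled and kept out of the counts by role and by cell type, and no tested member probe set lies on it. Adjusted p-values run over all 3 types. Adjusted over A and B alone with the number as a block, they were 0.00164 and 0.0190 for the probe sets of Bmp6, 0.0283 for Bmp7 on A and 0.0422 for Bambi. The cause of this difference was not tested.

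A probe set was tested with limma if its signal exceeded the array's 40th percentile on 2 or more of the 4 arrays, and 17 probe sets of 9 members met this. The log2 difference is Runx2-null minus wild type on log2(signal + a pseudocount of 7 on A or 13 on B), which understates the change of dim probe sets. Without a block, 0 of the 17 passed an adjusted p of 0.05 in limma, and 4 had an unadjusted p under 0.05. Over all 3 array types 0.0259% of tested probe sets passed, and on A and B 0.0256% passed and 2.06% had an unadjusted p under 0.05. A block for the pool number removes any difference between the numbers that both genotypes share, whether of scanning or of the pools themselves. With the pool number as a block, 4 of the 17 passed and 7 had an unadjusted p under 0.05. With the block 2.18% of all tested probe sets passed, and on A and B 2.2% passed and 14.8% had an unadjusted p under 0.05. The 4 that passed were both probe sets of Bmp6, 1 of the pair for Bmp7 and the probe set of Bambi. All 4 were lower in Runx2-null humeri, but 1 of them, 92372_at of Bmp6, met the filter only through its wild-type arrays, so no direction is read from the count. On A and B 1.29% of tested probe sets were called lower and 0.904% higher. "Fell" and "rose" are used below only for limma calls with the block, and "passed" means the same. These calls also depend on estimating each variance from probe sets of similar brightness, since 0 of the 17 passed with the block when that trend was dropped. With the block and no signal filter, which brings dim probe sets into the variance model and the adjustment, only 161028_at of Bmp6 passed (limma adjusted p 0.0398).

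**Figure D1:**
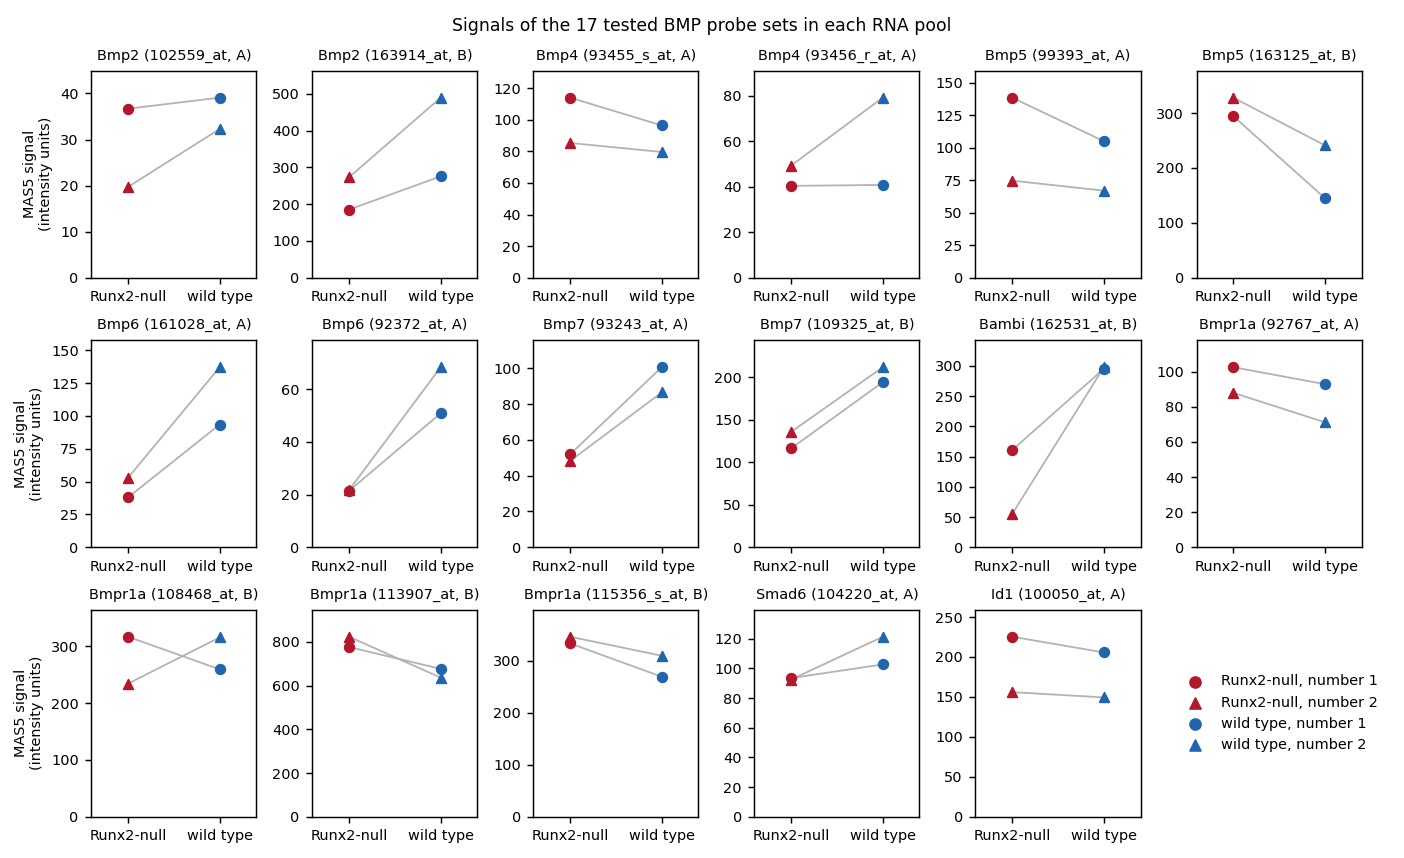
Deposited MAS5 signal (vertical axes, intensity units) of the 17 tested member probe sets, Runx2-null left and wild type right in each panel, with circles for pools numbered 1, triangles for pools numbered 2 and a grey line joining pools of 1 number. Both Runx2-null pools lie below both wild-type pools for 7 probe sets, among them the Bmp6, Bmp7 and Bambi probe sets, and above them for 3, 1 of Bmp5 and 2 of Bmpr1a. Over all tested A and B probe sets 11.7% lie below and 13.6% above. The 7 include 92372_at of Bmp6, which met the signal filter only through wild type.

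Bmp6, a ligand made in cartilage by prehypertrophic and hypertrophic chondrocytes, fell on both of its probe sets. On 161028_at of type A its signal was 37.9 and 52.9 in Runx2-null pools, against 93.5 and 137.2 in wild-type pools. Both Runx2-null pools lay below both wild-type pools, with means of 45.4 ± 10.6 in Runx2-null and 115 ± 30.9 in wild-type humeri (SD, n = 2 pools each). The log2 difference was -1.21 ± 0.17 (SE with the block, 95% interval -1.59 to -0.84), with a limma adjusted p of 0.00244 with the block and 0.316 without it. Within pools numbered 1 it was -1.16 and within those numbered 2 it was -1.27.

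On the other Bmp6 probe set, 92372_at of type A, the signal was 21.4 and 21.7 in Runx2-null pools, against 50.9 and 68.4 in wild-type pools. The groups again did not overlap, and the log2 difference was -1.21 ± 0.24 (SE with the block). The limma adjusted p was 0.0227 with the block and 0.376 without it, and the differences within numbers were -1.03 and -1.39. This probe set met the signal filter only on the 2 wild-type arrays, so it had to be higher in wild type to be tested at all, and its call is a description rather than support for the first.

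The RefSeq promoter table (GRCm38.p6) held 6 of the 10 members: Bmp4, Bmp5, Bmp6, Bmpr1a, Grem1 and Smad6. Their windows of 250 bases before and 50 after the transcription start were searched on both strands for short motifs. The Bmp6 promoter is shown because Bmp6 fell on both probe sets, and the Bmp5 promoter because its signal on 1 array B probe set differed in the opposite direction. Capitals mark the Smad box, GTCTG or its reverse complement CAGAC, to which Smad complexes can bind.
Bmp6, chr13:38345466-38345715, plus strand, GRCm38.p6: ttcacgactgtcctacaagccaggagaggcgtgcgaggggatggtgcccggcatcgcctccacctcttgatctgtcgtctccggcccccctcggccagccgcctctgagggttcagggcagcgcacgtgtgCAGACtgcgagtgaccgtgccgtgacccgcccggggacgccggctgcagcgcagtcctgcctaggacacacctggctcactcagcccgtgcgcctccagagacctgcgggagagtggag
Bmp5, chr9:75775115-75775364, plus strand, GRCm38.p6: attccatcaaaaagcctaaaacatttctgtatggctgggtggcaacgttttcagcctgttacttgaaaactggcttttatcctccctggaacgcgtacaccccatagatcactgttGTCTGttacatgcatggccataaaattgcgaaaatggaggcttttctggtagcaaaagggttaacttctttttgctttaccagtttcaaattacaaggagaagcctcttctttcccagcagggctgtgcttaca
The match begins at position -119 from the start in Bmp6 and at -134 in Bmp5. The Smad box was present in 3 of the 6 member windows, those of Bmp5, Bmp6 and Grem1, and in 49.6% of all 32851 promoter windows. The RUNX core TGTGGT, searched on both strands, was in 0 of the 6 and in 16.8% of all windows, which says only that these letters are not in these windows. The GC-rich element GGCGCC was in 2 of the 6, Bmpr1a and Grem1, and in 11.9% of all. A match is a description of the letters and not of binding.

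Bmp7, a ligand of the same subgroup as Bmp5 and Bmp6, fell on 1 of its pair of probe sets. On 93243_at of type A its signal was 51.9 and 48.2 in Runx2-null pools, against 100.6 and 86.5 in wild-type pools. The groups did not overlap and each pool lay close to its partner. Its log2 difference was -0.81 ± 0.18 (SE with the block, 95% interval -1.19 to -0.43), with a limma adjusted p of 0.0319 with the block and 0.441 without it. Within numbers 1 and 2 it was -0.87 and -0.76. Without the signal filter the adjusted p with the block was 0.134.

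On the type B probe set of Bmp7, 109325_at, the signal was 116.2 and 135.6 in Runx2-null pools, against 194.1 and 211.7 in wild-type pools. The groups did not overlap here either, and the log2 difference of -0.64 (95% interval with the block -1.09 to -0.19) had the same direction within both numbers. It did not pass, with a limma adjusted p of 0.147 with the block. Wild-type means were 1.87 times the Runx2-null means on type A and 1.61 times on type B.

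Bmp2, a ligand with roles in chondrocyte maturation and bone repair, did not pass on either tested probe set. On 163914_at of type B the signal was 185.1 and 273.0 in Runx2-null pools, against 275.7 and 489.7 in wild-type pools. The groups did not overlap, although the higher Runx2-null pool lay just under the lower wild-type pool. This gave a log2 difference of -0.68 (95% interval with the block -1.10 to -0.26), with differences of -0.54 and -0.81 within numbers and a limma adjusted p of 0.106. On 102559_at of type A the signal was 36.7 and 19.7 in Runx2-null pools, against 39.1 and 32.3 in wild-type pools, and the groups overlapped. Its log2 difference of -0.32 had a 95% interval of -0.89 to 0.26 with the block. A further pair of Bmp2 probe sets on type A, 161118_r_at and 161901_r_at, stayed at 9.1 or less on all arrays and was not tested.

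Bmp4, a ligand closely related to Bmp2, had overlapping groups on both tested probe sets. On 93455_s_at the signal was 114.0 and 85.3 in Runx2-null pools, against 96.4 and 79.6 in wild-type pools, and the log2 difference was 0.16 (95% interval with the block -0.18 to 0.50). On 93456_r_at it was 40.4 and 49.3 in Runx2-null pools, against 40.8 and 79.2 in wild-type pools, and the log2 difference was -0.31 (95% interval -0.78 to 0.16). The probe sets thus differed in direction, and neither passed, with limma adjusted p of 0.658 and 0.509 with the block. The third, 164214_at on type B, was over the filter on 1 array only and was not tested. Its signals were 53.2 and 29.2 in Runx2-null pools and 12.2 and 23.6 in wild-type pools.

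Bmp5, a ligand of perichondrium and mesenchymal condensations known from the mouse short ear mutation, was higher in Runx2-null pools on its array B probe set, the only tested probe set of the 5 member ligands whose groups were separate in that direction. On 163125_at the signal was 294.6 and 328.1 in Runx2-null pools, against 145.0 and 241.2 in wild-type pools, and the groups did not overlap. Its log2 difference was 0.69 (95% interval with the block 0.23 to 1.16), with 0.96 and 0.42 within numbers. It did not pass, with a limma adjusted p of 0.130 with the block and 0.740 without it. On 99393_at of type A the signal was 138.4 and 74.6 in Runx2-null pools, against 104.9 and 66.9 in wild-type pools. These groups overlapped, and the log2 difference of 0.26 (95% interval -0.08 to 0.60) was positive within each number.

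Bambi, a transmembrane pseudoreceptor that lacks a kinase domain and dampens BMP and TGF-beta signalling, fell on its probe set 162531_at of type B. Its signal was 160.6 and 54.9 in Runx2-null pools, against 295.3 and 297.9 in wild-type pools. The wild-type pools were nearly equal, while the Runx2-null pools differed widely and both lay below them. Means were 108 ± 74.7 in Runx2-null and 297 ± 1.84 in wild-type humeri (SD, n = 2 pools each). The log2 difference was -1.51 ± 0.30 (SE with the block, 95% interval -2.20 to -0.82), with a limma adjusted p of 0.0448 with the block and 0.398 without it. The size rested on Runx2-null pool 2: without it the difference was -0.83, and without Runx2-null pool 1 it was -2.19. Without the signal filter the adjusted p with the block was 0.0748.

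Grem1, a secreted antagonist that binds BMP2, BMP4 and BMP7, was not measurable here. Its signals were 10.2 and 6.2 in Runx2-null pools and 9.9 and 5.3 in wild-type pools on 101758_at of type A. On 112994_at of type B they were 11.0 and 37.5 in Runx2-null pools and 29.8 and 8.0 in wild-type pools, with 1 array over the filter. Neither probe set was tested, and no direction is given.

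Bmpr1a, a type I BMP receptor that cartilage requires, was read by 4 tested probe sets and none passed. On 113907_at of type B the signal was 776.0 and 823.3 in Runx2-null pools, against 676.3 and 636.1 in wild-type pools. The groups did not overlap, and the log2 difference was 0.28 (95% interval with the block -0.09 to 0.65, limma adjusted p 0.424). On 115356_s_at, also of type B, the signal was 333.3 and 346.1 in Runx2-null pools, against 269.1 and 309.5 in wild-type pools, again without overlap. The log2 difference there was 0.23 (95% interval -0.18 to 0.63). The other two overlapped: 92767_at had a log2 difference of 0.21 (95% interval -0.14 to 0.55) and 108468_at one of -0.07 (95% interval -0.55 to 0.42). All 4 intervals span 0 and lie between -0.55 and 0.65. The type C probe set 171502_r_at stayed at 23.2 or less and was not tested.

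Smad6, an inhibitory Smad that BMP signalling itself induces, had a signal of 93.5 and 92.5 in Runx2-null pools, against 102.7 and 121.4 in wild-type pools, on 104220_at of type A. The groups did not overlap but lay close. This gave a log2 difference of -0.25 (95% interval with the block -0.58 to 0.08), and it did not pass, with a limma adjusted p of 0.446. The letters around its start in the promoter table, which lies slightly inside the outermost end of the gene in the RefSeq gene table, are shown because they hold the palindrome GTCTAGAC, in capitals, a paired form of the Smad core; it contains no GTCTG.
Smad6, chr9:64022045-64022074, minus strand, GRCm38.p6: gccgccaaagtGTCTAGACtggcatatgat
Among the 6 member windows the palindrome was in Smad6 alone, and it was in 0.213% of all promoter windows.

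Id1, an inhibitor of basic helix-loop-helix factors and a direct readout of Smad signalling, had a signal of 225.4 and 156.0 in Runx2-null pools, against 205.7 and 149.4 in wild-type pools, on 100050_at of type A. The values ordered by pool number and the genotypes overlapped. Its log2 difference was 0.09 (95% interval with the block -0.17 to 0.36), with 0.13 and 0.06 within numbers. This interval does not include a change as large as that of Bmp6 or Bambi, while a p that misses the threshold does not show equal levels. The phosphorylated Smads, on which pathway activity rests, were not measured.

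**Figure D2:**
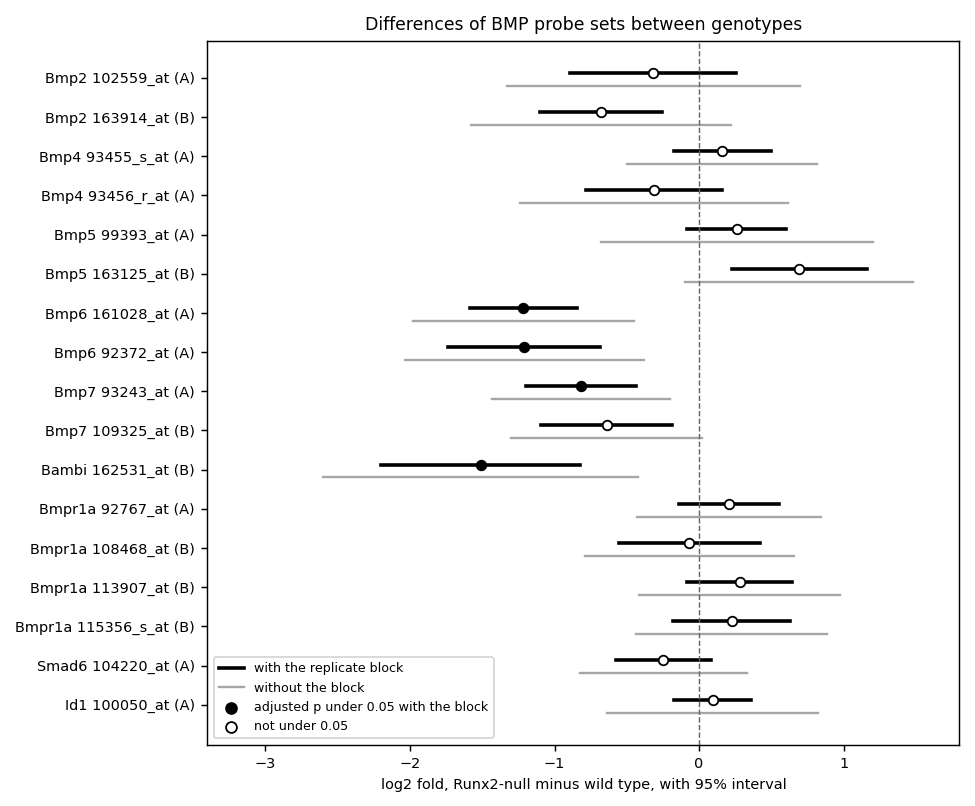
Log2 difference, Runx2-null minus wild type (horizontal axis), of the 17 tested member probe sets with 95% intervals, black with the pool number as a block and grey without it. Filled points mark a limma adjusted p under 0.05 with the block; these are both Bmp6 probe sets (-1.21 each), Bmp7 on type A (-0.81) and Bambi (-1.51), and all grey intervals are wider.

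Over the 17 tested member probe sets the median log2 difference was -0.25, beside 0.0147 over all tested probe sets of A and B. Runx2-null pools lay below wild-type pools without overlap for 7, beside a background of 11.7%, and above them for 3, beside 13.6%. The sign was the same in both pool numbers for 16 of the 17. It was lower in both for 9, beside 28% of tested probe sets, and higher in both for 7, beside 32.1%. These counts hold several probe sets of 1 gene and a Bmp6 probe set that met the filter through wild type, so they describe the members and carry no test.

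**Figure D3:**
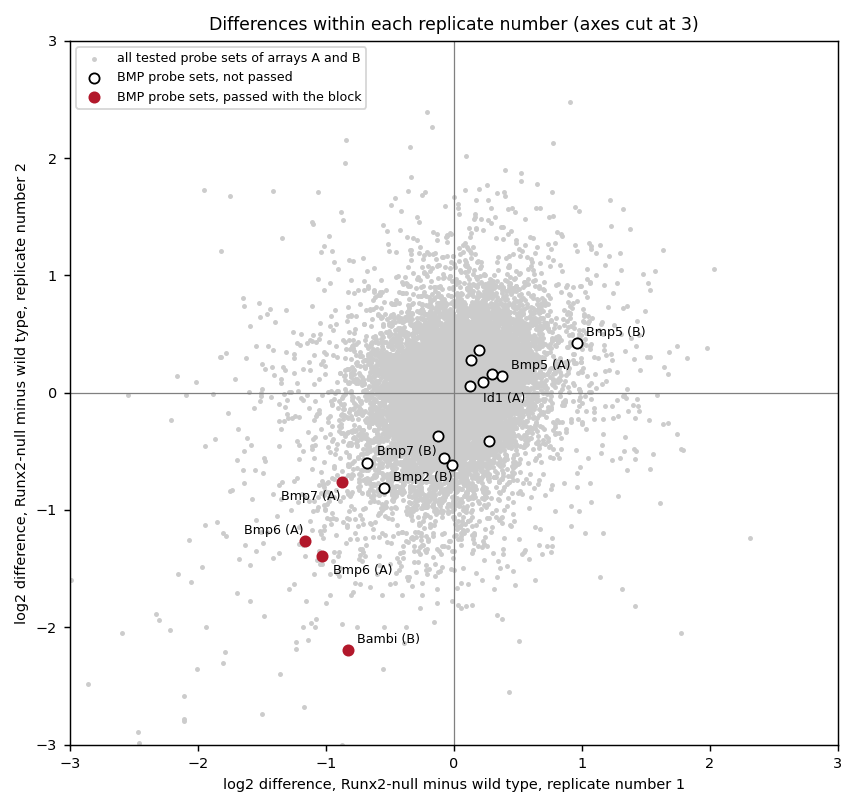
Log2 difference, Runx2-null minus wild type, within pools numbered 1 (horizontal axis) against that within pools numbered 2 (vertical axis), for all tested probe sets of types A and B (grey) and the member probe sets (filled red where they passed with the block, open otherwise); both axes end at 3 in size. Bambi lies at -0.83 and -2.19 and the 161028_at probe set of Bmp6 at -1.16 and -1.27, while Id1 lies at 0.13 and 0.06.

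The genes whose levels over the 4 arrays lay nearest to each called member were found by Euclidean distance between centred log2 values, among singly named genes of the same array type. Nearest to Bmp6 on 161028_at were Ihh (0.126), Gadd45g (0.142) and Gnai1 (0.228), and nearest to it on 92372_at were Hpgd (0.126), Ptpn13 (0.161) and Ihh (0.195). Ihh, Indian hedgehog, is the secreted signal of prehypertrophic chondrocytes. Its signal was 44.5 and 53.8 in Runx2-null pools, against 99.8 and 148.4 in wild-type pools, a log2 difference of -1.20. Tpd52 (0.0736), Chst2 (0.108) and Sf3a1 (0.121) lay nearest to Bmp7 on type A, and Ppm1e (0.232), Rasgrp2 (0.274) and Mef2c (0.323) to Bambi. Chst2 and Ppm1e met the signal filter only through wild type, so they had to be higher there to be tested. With 4 arrays many genes lie near any pattern, and the distances are descriptions.

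Beyond the members, 71 further genes of the pathway were listed by role, and 61 had a singly named probe set, 52 of them tested. Each gene was read by its probe set with the highest signal rank, which lay on type A or B for 44 genes. With the block 2 of the 44 fell, 1 rose and 41 did not pass. Over all tested A and B probe sets 1.29% fell and 0.904% rose. With the block 8 of the 44 had an unadjusted p under 0.05, near the 14.8% of all tested A and B probe sets. Without the block 0 passed in limma, beside 0.0256% of all tested A and B probe sets. An unadjusted p under 0.05 was reached by 1, beside 2.06%. Their median log2 difference on A and B was -0.02, near that of all tested probe sets.

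Pcsk6, a proprotein convertase able to cut TGF-beta family precursors, fell. On 114420_at of type B its signal was 274.1 and 311.5 in Runx2-null pools, against 608.3 and 1252.7 in wild-type pools, with no overlap. The log2 difference was -1.54 ± 0.22 (SE with the block), with a limma adjusted p of 0.0117 with the block and 0.298 without it. The type A probe set 101196_at read 113.0 and 59.0 in Runx2-null pools, against 240.7 and 175.2 in wild-type pools, and also passed, with a limma adjusted p of 0.000576 with the block and 0.406 without it. The wild-type mean was 3.18 times the Runx2-null mean on type B and 2.42 times on type A. The other 4 proteases tested did not pass, among them Tll1, a chordin-cleaving protease, with a log2 difference of 0.87 and a limma adjusted p of 0.143. Tll1 met the signal filter only through its Runx2-null arrays, so it had to be higher there to be tested. Its value is a description, although it is counted above among those with an unadjusted p under 0.05.

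Among the other ligands, 5 were read on A or B and Gdf10, a BMP3-like factor, rose. Its signal was 244.1 and 315.4 in Runx2-null pools, against 124.4 and 258.3 in wild-type pools. The genotypes overlapped across numbers, and the difference was 0.93 within number 1 and 0.28 within number 2. The limma adjusted p was 0.0485 with the block and 0.912 without it. Gdf5, the joint-forming ligand, had a log2 difference of 0.27 and did not pass (limma adjusted p 0.391).

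Among 7 other target genes read on A or B, Tbx2, a T-box repressor, fell and 6 did not pass. Its signal on 92705_at was 77.0 and 26.6 in Runx2-null pools, against 142.4 and 66.4 in wild-type pools. The genotypes overlapped only across numbers, and the log2 difference of -0.98 ± 0.18 (SE with the block) had a limma adjusted p of 0.0147 with the block and 0.854 without it. Its other probe set, 104655_at, had a log2 difference of -0.68 and did not pass. The Id genes beside Id1, which act in the same way, did not pass: their log2 differences were 0.16 for Id2, -0.15 for Id3 and 0.14 for Id4.

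The remaining role lists held no gene that passed with limma on its highest-ranked probe set, with or without the block. Of 12 antagonists and binding proteins on A or B, 2 had an unadjusted p under 0.05 with the block (background 14.8%), and the lowest p belonged to Fstl1 and Nog. Fstl1, a secreted follistatin-like glycoprotein, had a log2 difference of 0.42 (adjusted p 0.0749), and Nog, noggin, one of -0.45 (adjusted p 0.250). Htra1, a secreted protease that binds TGF-beta family ligands, was read on type C, where its log2 difference was -0.39 as labelled and did not pass. Its lower-ranked type A probe set 96920_at, named after its values were seen, went the other way. Its signal was 574.4 and 575.1 in Runx2-null pools, against 382.3 and 432.4 in wild-type pools, a log2 difference of 0.49 that passed (limma adjusted p 0.0211 with the block and 0.646 without it).

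Of 7 further receptors, 1 had an unadjusted p under 0.05: Eng, endoglin, a co-receptor of endothelial cells, with a log2 difference of -0.40 (adjusted p 0.0814). Bmpr1b, a type I receptor of cartilage condensations, was read on type C as labelled, with 148.6 and 178.3 in Runx2-null pools, against 79.7 and 141.8 in wild-type pools, and did not pass (adjusted p 0.351).

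Of 8 further Smads and Smad regulators on A or B, 1 had an unadjusted p under 0.05. This was Smad1, a transducer of BMP signals, whose probe sets differed in their calls. Its signal on 102984_g_at was 110.4 and 91.0 in Runx2-null pools, against 154.6 and 116.0 in wild-type pools, a log2 difference of -0.39 (limma adjusted p 0.176 with the block). On the dimmer 102983_at, named after its values were seen, it was 77.1 and 35.8 in Runx2-null pools, against 126.8 and 71.0 in wild-type pools, a log2 difference of -0.77 that passed (limma adjusted p 0.0400 with the block). Smurf1, a ubiquitin ligase for Smads, was read on type C as labelled, with 275.5 and 214.1 in Runx2-null pools and 367.1 and 349.7 in wild-type pools, and did not pass (adjusted p 0.202).

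**Figure D4:**
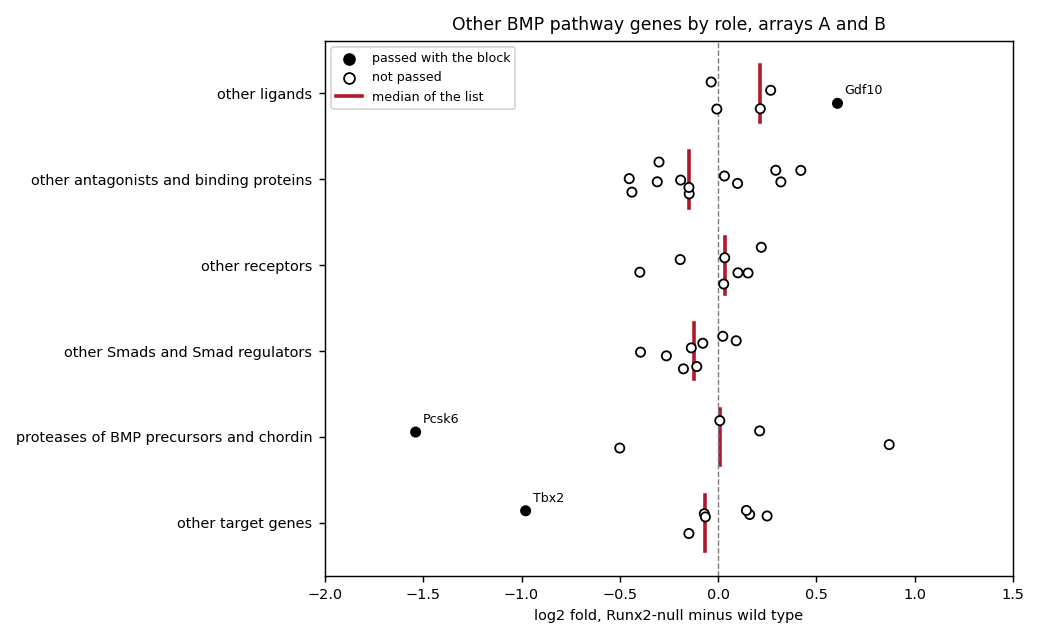
Log2 difference, Runx2-null minus wild type (horizontal axis), of the 44 other pathway genes read on types A and B, by role, 1 point per gene; filled points passed with the pool number as a block and red bars mark the median of each role. Pcsk6 (-1.54) and Tbx2 (-0.98) are the filled points on the left and Gdf10 (0.61) is the filled point on the right.

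In these bulk pools fewer cells of a type and less RNA per cell cannot be told apart, and markers of several cell types moved with Bmp6, Bmp7 and Bambi. Of 8 hypertrophic chondrocyte markers read on A or B, 7 fell, with a median log2 difference of -1.85. Over all tested A and B probe sets 1.29% fell. Ibsp and Mmp13 met the signal filter only through wild type, so they had to be higher there to be tested. The summed signal of the 8 was 593.1 and 417.1 in Runx2-null pools, against 3740.7 and 4975.2 in wild-type pools. Ihh, among the genes nearest to Bmp6, is in this list and fell. Mef2c, among those nearest to Bambi, is the list member that did not pass (limma adjusted p 0.0749 with the block), at 253.9 and 104.2 in Runx2-null pools, against 376.3 and 455.9 in wild-type pools. Col10a1, the defining collagen of these cells, was at 5.6 and 9.1 in Runx2-null pools and 6.0 and 18.3 in wild-type pools and was not tested.

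Of 10 osteoblast markers, 9 fell, beside 1.29% of all tested A and B probe sets, and 3 of them are also in the hypertrophic list. The median was -1.58, with summed signals of 9383.6 and 6339.5 in Runx2-null pools, against 13752.4 and 12147.7 in wild-type pools. Ibsp, Dmp1, Omd, Dlx3 and Lrp5 met the signal filter only through wild type, so their calls are descriptions. The 3 osteoclast markers read on A or B fell, with a median of -2.32 and sums of 234.7 and 375.3 in Runx2-null pools, against 1745.6 and 1855 in wild-type pools. Of these, Mmp9 met the filter only through wild type. Of the 9 osteoclast markers listed, 5 were not tested. Among those, Tnfrsf11a was at 29.8 and 19.7 in Runx2-null pools and 27.8 and 19.1 in wild-type pools. Itgb3 was at 22.2 and 9.1 in Runx2-null pools and 44.5 and 12.4 in wild-type pools. Atp6v0d2, read on type C, had a log2 difference of 0.48 as labelled and did not pass. Of 11 chondrocyte markers, 1 fell and 10 did not pass, with a median of -0.03 and sums of 15801.4 and 17373.7 in Runx2-null pools, against 14303.8 and 17821.6 in wild-type pools. Their sums overlapped, and signal of several cartilage genes, such as Acan and Col9a1, was high in both genotypes. Col2a1 was low, at 10.5 and 9.1 in Runx2-null pools and 26.4 and 5.7 in wild-type pools, and was not tested. Sox5, at 11.0 and 2.6 in Runx2-null pools and 4.0 and 2.1 in wild-type pools, was not tested either. The 3 chondrocyte markers read on type C were higher in Runx2-null as labelled, without overlap, and did not pass. Their log2 differences were 1.09 for Comp, 0.87 for Col9a3 and 0.70 for Cnmd (limma adjusted p 0.0591, 0.0909 and 0.277 with the block).

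The 8 endothelial markers, which include Eng, had 0 calls with limma, 4 with an unadjusted p under 0.05 with the block (background 14.8%), and a median of -0.42. Their sums were 816.2 and 524.7 in Runx2-null pools, against 1006.3 and 697 in wild-type pools. Of 8 tendon and fibrous tissue markers read on A or B, 3 rose, beside 0.904% of all tested A and B probe sets, and 5 did not pass. Their median was 0.30, with sums of 8741.3 and 7879.5 in Runx2-null pools, against 7547.1 and 6426.6 in wild-type pools. Tnmd of the same list, read on type C, fell as labelled. Its signal was 444.4 and 691.5 in Runx2-null pools, against 1532.9 and 2116.8 in wild-type pools. The log2 difference was -1.68 (limma adjusted p 0.00595 with the block). The 9 skeletal muscle markers had 0 calls with limma and 1 with an unadjusted p under 0.05 with the block. Their sums of 4696.4 and 846.9 in Runx2-null pools and 3887 and 1115 in wild-type pools split by pool number. The 2 muscle markers read on type C did not pass as labelled. Their log2 differences were -1.49 for Tnni1 and 0.03 for Ckm (limma adjusted p 0.0515 and 0.963 with the block). The erythroid, macrophage and leukocyte, neural and Schwann cell, and epidermis lists also had 0 calls with limma on A and B. With the block 1 of 4, 3 of 5, 2 of 4 and 0 of 2 of their genes, in that order, had an unadjusted p under 0.05, beside the background of 14.8%. The part of these cell types in the differences of the BMP genes was not tested.

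**Figure D5:**
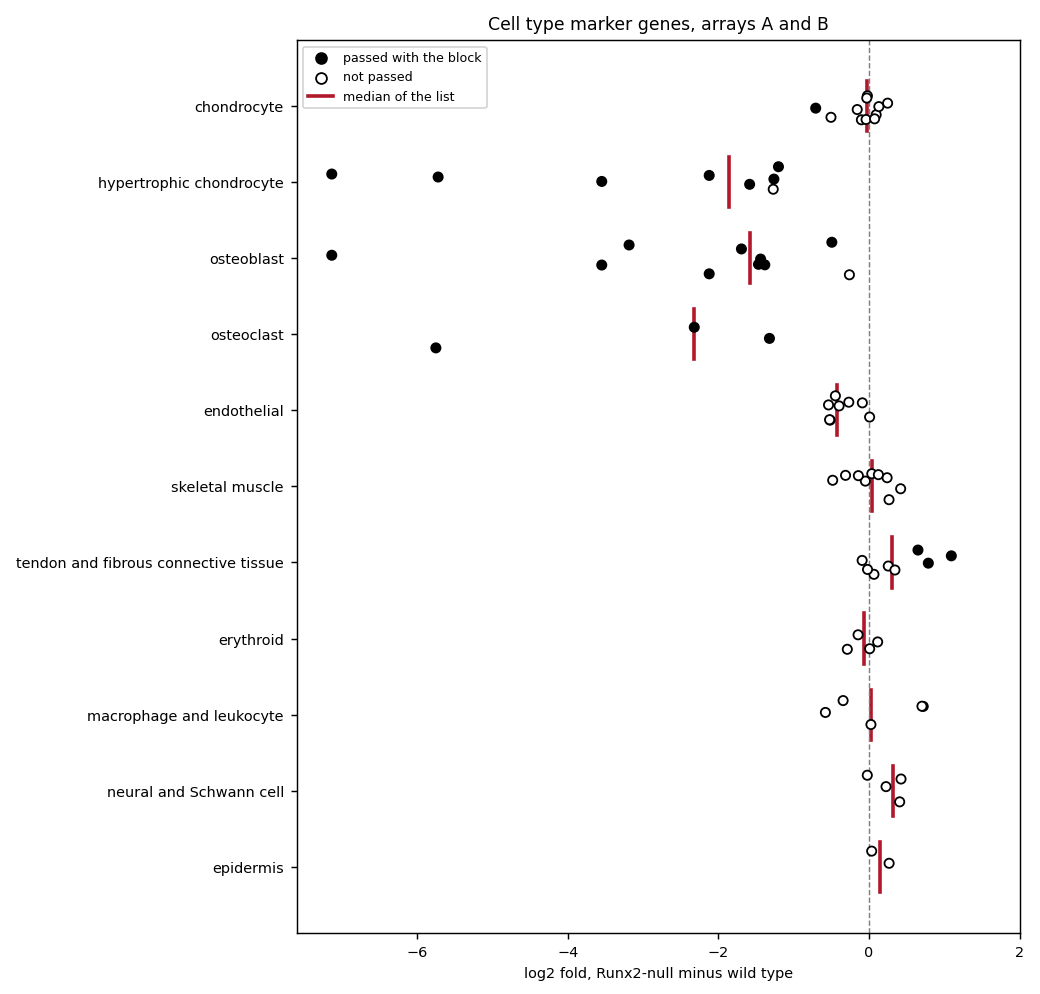
Log2 difference, Runx2-null minus wild type (horizontal axis), of cell type markers read on types A and B, by list, 1 point per gene; filled points passed with the pool number as a block and bars mark the median of each list. The hypertrophic chondrocyte (-1.85), osteoblast (-1.58) and osteoclast (-2.32) medians lie to the left and the chondrocyte median lies at -0.03.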

How the data were processed

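The values the authors deposited are intensities on a linear scale, 1 per probe set on each array. They were made with MAS5, per the submitters' processing notes, whose version was not given in the sources. Per the labels' protocols, total RNA was reverse transcribed and labelled with biotin by in vitro transcription. No further scaling was applied. Names came from the platform annotation of each probe set: 29131 had 1 symbol, 724 several and 6846 none.

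Values were taken as log2(signal + pseudocount), the pseudocount being the rounded 20th percentile of each array type (7 on A, 13 on B, 10 on C). In all, 23193 probe sets met the filter. They were tested in R 4.3.3 with limma 3.58.1 (lmFit, then eBayes with trend = TRUE), 1 fit per array type, with Benjamini-Hochberg adjustment over all types. All p-values are two-sided. The procedure was also run on simulated data with planted changes. The noise there was equal for all probe sets of an array type, so that run cannot judge the variance trend. The planned design had no block, and the pool number as a block was planned beside it. The array files place scan settings with the number, and after subtracting genotype means, same-numbered arrays correlated at 0.764 on A, 0.595 on B and 0.0557 on C. With the block the degrees of freedom of the variance prior were 12.7 (A) and 7.74 (B), against 1 residual degree, so its p-values rest mostly on other probe sets. SD is over the 2 pools of a genotype. SE and intervals use the variance estimated by eBayes, which with the block draws mostly on other probe sets. They are therefore not the observed spread of the pools alone. Having 2 pools per genotype limits the precision of every value.

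A gene with several probe sets was read by the one whose mean log2 signal had the highest rank on its array type, and all probe sets of members are given. The genes named are the members, pathway genes past the threshold, the 2 lowest p in each role list with none past it, and the 3 nearest genes of each called member; others are examples chosen after their values were seen. The members and lists were chosen with earlier results of these data known. Promoter sequences are RefSeq's (GRCm38.p6). Alternatives were another pseudocount, filter, normalization (quantile) and variance model, types A and B alone, and each pool left out.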

Additional observations from a re-analysis of the deposited data

How the results depend on the processing

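Without a block 0 of 17 member probe sets passed limma, and with the replicate block 4 passed. With the block and 1 further change, 4 passed with a robust variance prior, after quantile normalization, with a pseudocount of 1, with a doubled pseudocount and with types A and B alone, 3 with a filter at the 60th percentile, 1 without a filter and 0 without the variance trend. Without the trend the adjusted p with the block was 0.201 and 0.2285 for Bmp6, 0.250 for Bmp7 and 0.261 for Bambi; without a filter it was 0.0398 for Bmp6 on 161028_at, 0.134 on 92372_at, 0.134 for Bmp7 and 0.0748 for Bambi. No member passed in any setting without the block.

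Over all tested probe sets, 6 passed without the block, 11 after quantile normalization, 2 with a pseudocount of 1, 11 with a doubled pseudocount, 11 with the 60th percentile filter and 2 without the trend, and 5 to 22 with a pool left out. With the replicate block 505 passed, 488 with a robust prior, 632 after quantile normalization, 673 and 681 with the smaller and larger pseudocount, 110 without a filter, 667 with the 60th percentile filter, 343 on A and B alone and 6 without the trend. The cause of these shifts was not tested.

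The median over the 52 other pathway genes tested, 8 of them read on type C, was -0.01; over the 49 genes with a tested probe set on A or B it was -0.064. Over the 52 it was -0.11 within number 2, and -0.085 to 0.042 with a pool left out. With a pool left out 6 member probe sets took both signs: Bmp2 102559_at -0.67 to 0.038, Bmp4 93455_s_at -0.036 to 0.35 and 93456_r_at -0.74 to 0.11, Bmp5 99393_at -0.16 to 0.68, Bmpr1a 108468_at -0.27 to 0.14, and Id1 -0.16 to 0.35. With the block and a pool left out no residual degree of freedom remained, so that test was not run. Members near a signal of 30 lie at the filter, and what their brightness limits was not measured further.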
